A study of Drosophila melanogaster with 13 samples.

Results

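The unpaired (Upd) gene cluster of the Drosophila melanogaster X chromosome holds upd2, upd3 and os (outstretched, also called upd1), which encode the 3 ligands of the JAK/STAT pathway. Its open chromatin was followed in eye-antennal discs of larvae, the larval tissue that forms the eye, antenna and head. All merged peaks lying in chrX:18120000-18225000 (dm3) were taken, with no further choice by value. This gave 50 of the 36506 merged peaks of the study and 50 of the 6441 on the X chromosome. They are called peaks 1 to 50, in order along the chromosome. The merged list was itself made from the peaks called in these samples. Of the 50, 12 were called in tumors only and 5 in Upd samples only. Such peaks are in the set through the group where they are high, so their height there is no independent evidence. The window and the regions paired with the 3 genes below were known from the study's list of opening regions, which was made on these samples, so that the tumor difference at those 3 regions is no independent evidence.

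Wild-type discs came from the strains w;;FRT82, DGRP-208 and Optix-GFP for ATAC-seq, which reads where a transposase enters open chromatin, and from w;;FRT82 and CantonS for FAIRE-seq, which recovers DNA free of fixed nucleosomes. RasScrib tumors came from a cross in which one parent carried eyFlp in a y,w background, the Gal4 source act>y+>Gal4 with the marker UAS-GFP, and Tub-Gal80 on FRT82, and the other parent (y,w) carried UAS-RasV12 and the allele scrib2 on FRT82. Their clones lack the polarity gene scrib and express the active RasV12 in the domain of the eyeless-driven flippase, and the sampled tissue also holds cells without the clone genotype. There was 1 early and 1 late tumor sample per technique. Per the methods, late tumors were taken from older larvae, which stayed in a prolonged larval stage, so age and late stage cannot be told apart. The other 2 ATAC-seq samples, called Upd, came from GMR-gal4 crossed to UAS-UPD:GFP. GMR-gal4 drives in differentiating cells of the eye, which are only a part of the disc, and the transgene carries os coding sequence. Each sample is a pool of discs, per the labels 10 for ATAC-seq and 200 for FAIRE-seq, although the methods give fewer for the late ATAC-seq tumor. Wild-type samples of 1 technique differ in strain, and tumors differ from wild type in their full genotype, so strain and tumor cannot be told apart in the comparisons below. In such pools, fewer cells with an open region and less opening per cell cannot be told apart either.

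The Upd ligands are secreted cytokines. They bind the receptor Domeless, which activates the Janus kinase Hopscotch, and the phosphorylated transcription factor Stat92E then enters the nucleus. In the eye disc os is known for promoting growth and the early patterning of the eye field, and upd3 is best known as a cytokine of wounded and infected tissues. In the RefSeq annotation of Release 6, used here only for names and order, the genes run upd2, lncRNA:CR45607, lncRNA:CR45613, CG15059, upd3, lncRNA:CR15061 and os. No annotation of dm3 was used, so exons, introns and UTRs are not assigned, and a peak is placed by its distance from the regions that the study paired with a ligand gene. Those are peak 6 for upd2 at chrX:18139292-18139489, peak 30 for upd3 at chrX:18171109-18171510 and peak 46 for os at chrX:18203129-18203958.

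The samples held between 2375435 reads in merged peaks (FRT82 by FAIRE-seq) and 10871706 (late tumor by ATAC-seq). Values below are CPM, the reads of a peak scaled to the sample's TMM-normalised total of reads in merged peaks, and differences are log2 fold changes from edgeR with their SE, called at an adjusted p under 0.01. The X chromosome took from 13.6% of the reads (FRT82 by ATAC-seq) to 18.3% (Upd replicate 1), and a shift of that share moves all X peaks together. Its part in the results was not tested except by scaling on X reads alone. Of the X reads, the window took 0.992%, 0.882% and 1.26% by ATAC-seq in FRT82, DGRP-208 and Optix-GFP, then 1.45% for the early tumor, 1.55% for the late one, and 0.870% and 1.03% for the Upd samples. By FAIRE-seq it took 0.587% in FRT82, 0.541% in CantonS, 0.704% in the early and 0.750% in the late tumor. Every tumor thus lay above every wild type of its technique. The Optix-GFP sample stood apart from the other wild types here: it was the highest of the 3 at 43 of the 50 peaks, against 36.5% of all merged peaks and 57.0% of those on the X chromosome.

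**Figure D1:**
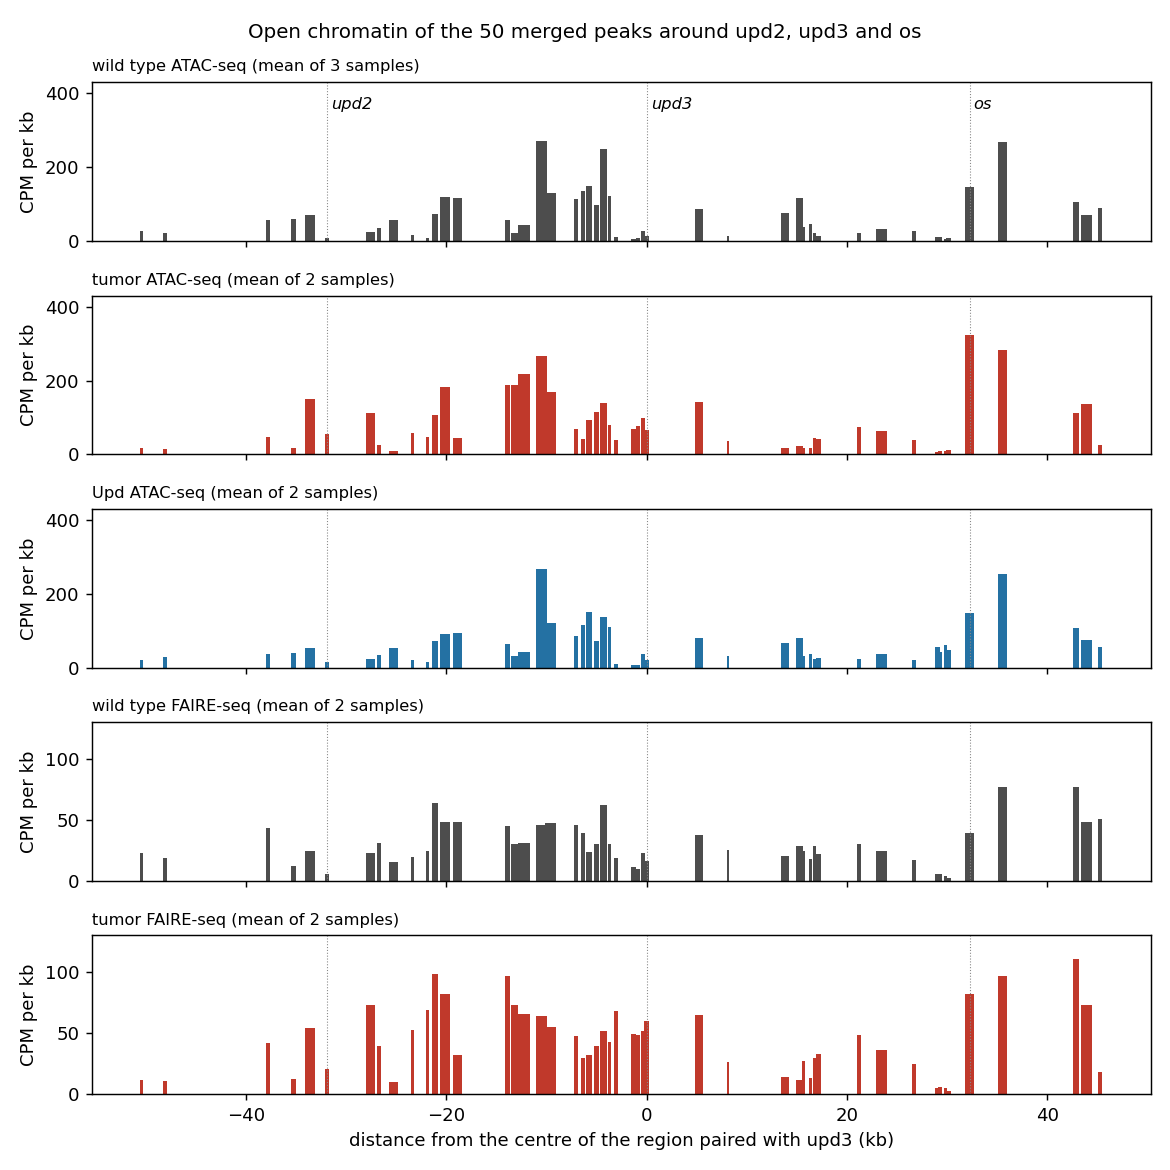
Mean CPM per kb of each of the 50 merged peaks (bars, as wide as the peak plus a small margin) against the distance in kb from the region paired with upd3, for wild type, tumor and Upd samples of each technique. Dotted lines mark the regions paired with upd2, upd3 and os; the bars at the upd2 and upd3 lines are low in the ATAC-seq wild types, and the bar at the os line is among their highest.

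The 50 peaks covered 21767 bp, or 20.7% of the window. They were 105 to 1030 bp long, with a median of 340.5 bp against 264 bp for all X peaks. In the wild-type ATAC-seq samples their mean level per length ran from 5.69 to 272 CPM per kb. The highest mean CPM over all 11 samples was at peak 18 (chrX:18160328-18161242), between upd2 and upd3, with 185, 174 and 388 CPM in the FRT82, DGRP-208 and Optix-GFP samples and 263 and 226 CPM in the early and late tumor by ATAC-seq. The groups overlapped there by ATAC-seq. By FAIRE-seq they did not, with 45.3 and 38.7 CPM in FRT82 and CantonS and 67.3 and 50.1 CPM in the early and late tumor. Its tumor difference over both techniques was 0.18 ± 0.23 on the log2 scale (adjusted p = 0.6). In the authors' peak lists, 8 of the 50 regions were called in every one of the 11 samples (peaks 12, 13, 18, 19, 31, 47, 48 and 49), against 24.7% of all merged peaks, while 8 were called in a single sample, against 20.9%.

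One question of the study was which regions differ between tumors and wild-type discs. Over both techniques, with technique as a term in the model (9 samples), 17 of the 50 peaks were higher in tumors and 5 were lower, where 11.6% of all merged peaks were called higher and 12.5% lower, and 11.8% and 10.4% of those on the X chromosome. The median log2 fold change of the 50 peaks was 0.34, against -0.03 over all merged peaks and -0.05 over the X chromosome. In CPM, all tumors lay above all wild types in both techniques at 20 of the 50 peaks (17% of all merged peaks) and below at 6 (18.3%). At no peak did the techniques show opposite sides without overlap. Each of the 3 ligand-paired regions was among the 17. Of the 17, peaks 6, 10, 11, 15, 16, 26, 27, 28, 30, 38 and 39 were called by the authors in tumors only. They are thus in the merged list through the tumors.

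At peak 30, paired with upd3, the wild-type ATAC-seq samples FRT82, DGRP-208 and Optix-GFP had 4.97, 5.83 and 7.36 CPM, and the early and late tumors had 23.0 and 30.7 CPM. By FAIRE-seq, FRT82 and CantonS had 7.97 and 5.21 CPM and the early and late tumors 16.2 and 31.8 CPM. All tumors lay well above all wild types of both techniques, and the wild-type values of the techniques were alike. The difference was 2.03 ± 0.26 on the log2 scale, or 4.09-fold (adjusted p = 7.6e-05). The authors called a peak here in all 4 tumors and in no other sample.

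Peak 6, paired with upd2, was low in every wild type, with 1.21, 2.91 and 1.64 CPM by ATAC-seq in FRT82, DGRP-208 and Optix-GFP and 1.09 and 1.27 CPM by FAIRE-seq in FRT82 and CantonS. The early and late tumors had 7.31 and 15.0 CPM by ATAC-seq and 2.93 and 5.39 CPM by FAIRE-seq. Tumors lay above wild types in each technique without overlap, and the late tumor was higher than the early one in both. The difference was 2.26 ± 0.37 (4.80-fold, adjusted p = 0.000318). It is a short region of 198 bp, and the authors called it as a peak only in the late ATAC-seq tumor.

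Peak 46, paired with os, differed from these in being widely open in wild-type discs already. It had 104, 101 and 157 CPM in FRT82, DGRP-208 and Optix-GFP by ATAC-seq, and 207.8 and 331 CPM in the early and late tumor. By FAIRE-seq the wild types FRT82 and CantonS had 36.2 and 28.5 CPM and the tumors 63.8 and 72.6 CPM. The rise was the smallest of the 3 ligand-paired regions, 1.11 ± 0.19 on the log2 scale or 2.15-fold (adjusted p = 0.00041), and the groups again did not overlap. Without the technique term this call was lost (0.96, adjusted p = 0.283). Its CPM was lower by FAIRE-seq than by ATAC-seq in every sample.

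**Figure D2:**
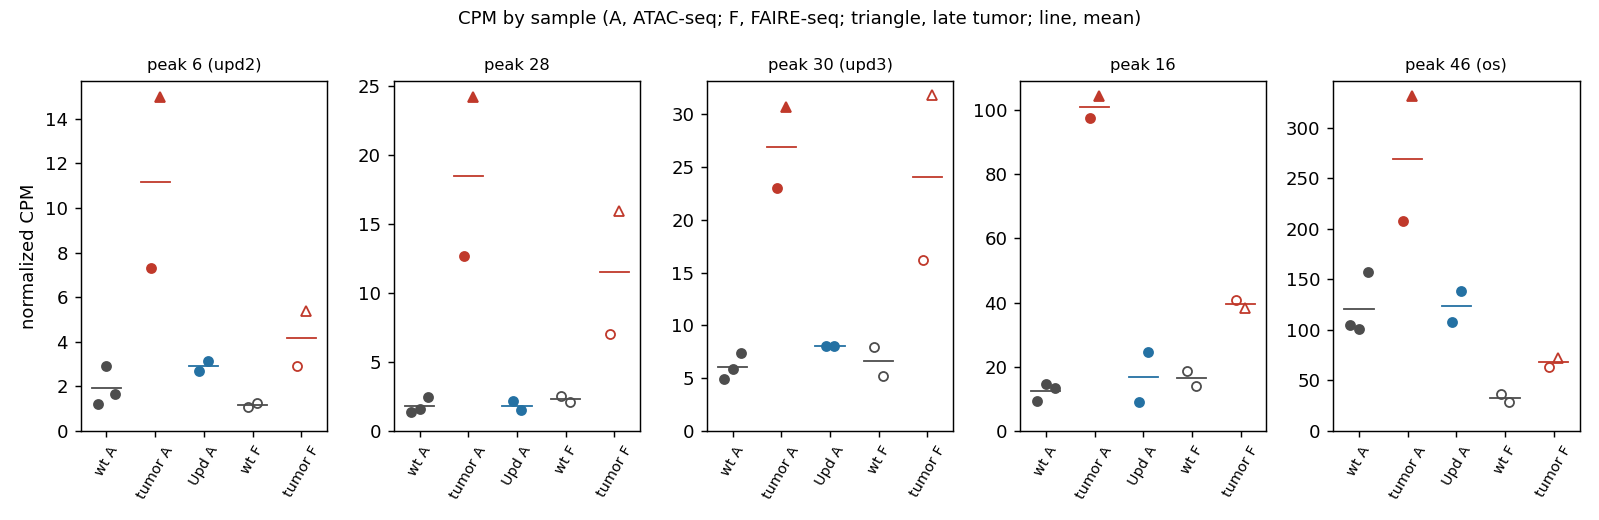
CPM of each sample (points) and group mean (lines) at the regions paired with upd2, upd3 and os and at peaks 28 and 16, for wild type, tumor and Upd samples by ATAC-seq (A, filled) and FAIRE-seq (F, open), with late tumors as triangles. At each of these regions all tumors lie above the wild types of the same technique. The Upd samples lie near the wild types, except at peak 16. There Upd replicate 2 has 24.5 CPM and replicate 1 has 8.88 CPM, against at most 14.7 CPM in the ATAC-seq wild types.

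The largest rises of the window were not at the ligand-paired regions themselves but beside the one of upd3. Peaks 26 to 30, from 18168177 to 18171510, were 5 adjacent peaks that all rose. The authors called peaks 27 and 28 only in the late tumors, and peak 26 only in the late FAIRE-seq tumor. Peak 28 (chrX:18170307-18170542) had 1.34, 1.59 and 2.45 CPM by ATAC-seq in FRT82, DGRP-208 and Optix-GFP, and 12.7 and 24.2 CPM in the early and late tumor. By FAIRE-seq FRT82 and CantonS had 2.54 and 2.11 CPM and the tumors 7.04 and 16 CPM. Tumors were thus far above wild types in both techniques, by 2.94 ± 0.36 on the log2 scale (7.66-fold, adjusted p = 5.71e-05).

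Its neighbour peak 27 (chrX:18169860-18170207) rose by 2.89 ± 0.43 (7.41-fold, adjusted p = 0.000172). It had 0.537, 2.78 and 2.62 CPM in the 3 wild types by ATAC-seq and 15.5 and 31.6 CPM in the early and late tumor, and by FAIRE-seq 3.26 and 4.65 CPM in the wild types and 11.1 and 23.0 CPM in the tumors. Peak 26 (chrX:18168177-18168371) had between 1.88 and 2.13 CPM in the ATAC-seq wild types, against 5.38 and 9.89 CPM in the tumors, and 2.90 and 4.51 CPM against 7.43 and 19.1 CPM by FAIRE-seq. Its difference was 1.86 ± 0.33 (3.62-fold, adjusted p = 0.00054). Peak 29, just before the region paired with upd3, rose by 1.53 ± 0.28 (adjusted p = 0.00073).

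A second run of rising peaks, 15 to 17, lay between upd2 and upd3 from 18157221 to 18159595, directly before the constantly open peaks 18 and 19. Peak 16 (chrX:18157872-18158411) had 9.27, 14.7 and 13.3 CPM in FRT82, DGRP-208 and Optix-GFP and 97.4 and 104 CPM in the early and late tumor by ATAC-seq. By FAIRE-seq it had 18.8 and 14.1 CPM in FRT82 and CantonS and 40.9 and 38.2 CPM in the tumors. The early tumor was here as high as the late one. The combined difference was 2.26 ± 0.29 (4.81-fold, adjusted p = 7.97e-05). Peaks 15 and 17 rose by 1.45 ± 0.20 (adjusted p = 0.000115) and 1.76 ± 0.25 (adjusted p = 0.000138). The next peaks along the chromosome gave 0.18 ± 0.23 (peak 18) and 0.28 ± 0.20 (peak 19), neither past the threshold.

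Around upd2, the peaks that rose were 5, 6, 7, 10 and 11. Peak 7 (chrX:18143360-18144127) had from 16.9 to 21.6 CPM in the wild types by ATAC-seq and 17.4 and 17.5 CPM by FAIRE-seq, so that their levels were alike in the techniques. Its tumors had 69.3 and 101 CPM by ATAC-seq and 39.9 and 72.6 CPM by FAIRE-seq, early and late in turn. The difference was 1.92 ± 0.21 (3.79-fold, adjusted p = 4.09e-05), the lowest adjusted p of the window. Peak 11 (chrX:18149322-18149512) had 0.940, 1.59 and 1.80 CPM in the ATAC-seq wild types and 6.67 and 11.2 CPM in the tumors, and 5.43 and 3.94 CPM against 7.63 and 18.8 CPM by FAIRE-seq. It rose by 2.09 ± 0.36 (4.27-fold, adjusted p = 0.000456). Peaks 5 and 10 rose by 1.10 ± 0.22 (adjusted p = 0.00135) and 1.70 ± 0.35 (adjusted p = 0.00163).

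Near os the rises were smaller. Besides peak 46 they were at peak 38 (1.07 ± 0.29, adjusted p = 0.0095), peak 39 (1.22 ± 0.25, adjusted p = 0.00148) and peak 49 (0.78 ± 0.16, adjusted p = 0.00134). By nearest ligand-paired region, 5 of the 14 peaks of upd2, 8 of the 21 of upd3 and 4 of the 15 of os were higher, and 2, 2 and 1 were lower.

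Of the 5 peaks that fell, peaks 9, 14, 33 and 34 had rising peaks before and after them, and peak 50 lay after the last rising one. None was adjacent to another except 33 and 34. Peak 34 (chrX:18186249-18186853), between upd3 and os, fell the most. It had 47.4, 54.3 and 113 CPM in FRT82, DGRP-208 and Optix-GFP and 11 and 17.6 CPM in the early and late tumor by ATAC-seq, and by FAIRE-seq 17.4 and 17.6 CPM in the wild types and 8.80 and 4.90 CPM in the tumors. The difference was -1.94 ± 0.32 on the log2 scale (adjusted p = 0.000385). Peak 33 beside it (chrX:18184767-18185456) had 34.1, 42.9 and 80.8 CPM against 10.8 and 13.5 CPM by ATAC-seq, while by FAIRE-seq the groups were close, with 12.3 and 15.4 CPM in wild types and 13.1 and 6.53 CPM in the early and late tumor. Its combined difference was -1.44 ± 0.37 (adjusted p = 0.00644).

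Peak 50 (chrX:18216437-18216730), the last of the window, was lower in both techniques. It had 22.2, 24.6 and 32.6 CPM in the ATAC-seq wild types against 7.74 and 7.23 CPM in the tumors, and 16.3 and 13.7 CPM against 6.06 and 4.57 CPM by FAIRE-seq. It fell by 1.70 on the log2 scale (SE 0.24, adjusted p = 0.000119). Peaks 14 and 50 were the only regions of the window that the authors called in all 5 wild types and in no tumor, as were 0.967% of all merged peaks.

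Peak 14 (chrX:18152096-18152777) had 73.1, 68.5 and 95.6 CPM in the ATAC-seq wild types, 29.5 and 32.2 CPM in the tumors, and by FAIRE-seq 35.5 and 30.7 CPM against 24.3 and 19.7 CPM. Its difference was -1.04 ± 0.21 (adjusted p = 0.00135). Peak 9 (chrX:18145646-18146398) varied among the ATAC-seq wild types, with 22.7, 45.2 and 64.6 CPM in FRT82, DGRP-208 and Optix-GFP against 6.88 and 8.61 CPM in the tumors by ATAC-seq, and 12 and 11.6 CPM against 8.21 and 7.18 CPM by FAIRE-seq. Its difference was -1.70 ± 0.39 (adjusted p = 0.00364). Peak 21 (chrX:18164837-18165055), with 26.5, 21.7 and 40.6 CPM in the ATAC-seq wild types and 6.67 and 11.7 CPM in the tumors, missed the combined threshold at -1.14 ± 0.32 (adjusted p = 0.0121), and by FAIRE-seq its groups were at 9.78 and 7.32 CPM against 6.26 and 6.85 CPM.

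**Figure D3:**
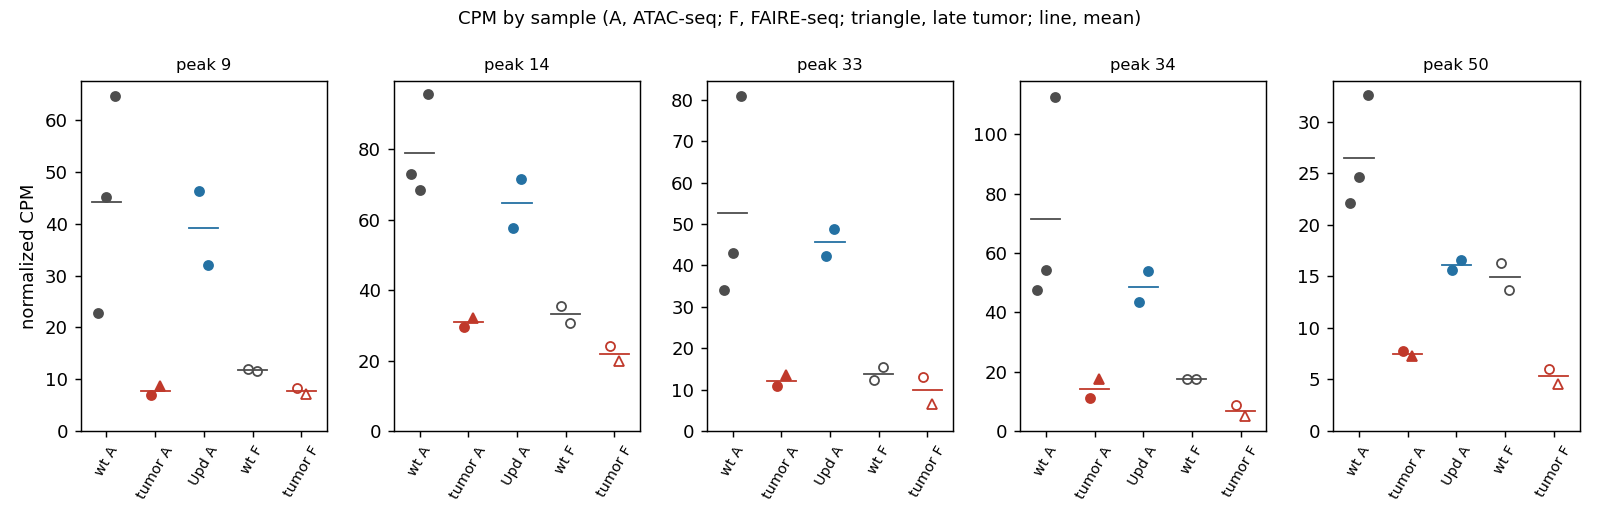
CPM of each sample (points) and group mean (lines) at the 5 peaks that were lower in tumors, drawn as in the plot of the ligand-paired regions. The distance between wild types and tumors is wide by ATAC-seq at all 5, and by FAIRE-seq the points of peak 33 overlap.

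Leaving out any 1 library gave 13 to 20 peaks higher, and 2 to 6 lower, with 2 lower when either the early or the late ATAC-seq tumor was left out (peaks 9, 14 and 33 were then no longer called). Without the technique term 9 peaks were higher and 1 was lower, where 1531 of all merged peaks were higher and 1866 lower. In the main fit 4226 and 4545 of all merged peaks were called. Peaks 6, 7, 15, 16, 26, 27, 28, 30 and 50 were past the threshold in all 15 settings tried for this comparison.

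Within ATAC-seq alone (5 samples) 17 peaks were higher and 7 lower in tumors, against 13.5% and 12.8% of all merged peaks. The largest ATAC-seq rises were at peak 27 (3.59 ± 0.50, adjusted p = 0.000138) and peak 28 (3.39 ± 0.39, adjusted p = 1.23e-05). The 7 lower peaks were 4, 9, 14, 21, 33, 34 and 50. Without the late tumor the counts were 7 higher and 2 lower, and without the early tumor 1 was lower. Within FAIRE-seq alone (4 samples) 7 peaks were higher, namely 7, 16, 17, 27, 28, 30 and 46, where 1.58% of all merged peaks were called higher, and none was lower, where 0.781% were. In the window 23 peaks had an unadjusted p under 0.05 by FAIRE-seq in either direction, or 46% against 24.2% of all merged peaks, and DESeq2 too called 0 lower. The count of 7 was 0 when reads were scaled on the X chromosome alone, where 57 of all merged peaks were called higher, against 575 in the main fit. The count of 7 also changed when any 1 FAIRE-seq library was left out, which leaves a group with 1 sample.

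A direct test of whether the tumor difference itself differed between the techniques gave no peak of the window past the threshold, against 0.011% of all merged peaks in the direction of a larger ATAC-seq value. In the window 8 peaks had an unadjusted p under 0.05, or 16% of the 50 against 17.3% of all merged peaks, and DESeq2 called 1 peak, peak 16. Over all merged peaks DESeq2 called 315 higher and 167 lower. The rises at peaks 30 and 46 were 2.16 ± 0.30 and 1.16 ± 0.25 by ATAC-seq and 1.97 ± 0.40 and 1.14 ± 0.24 by FAIRE-seq. The sizes were less alike at peaks 9, 16 and 33, which are among the 8 above. There they were -2.49 ± 0.41, 3.03 ± 0.26 and -2.10 ± 0.37 by ATAC-seq and -0.57 ± 0.38, 1.33 ± 0.28 and -0.48 ± 0.40 by FAIRE-seq.

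The tumors were sampled early and late. Against wild type, in 1 model of 9 samples with 3 stages, 7 peaks were higher in the early tumors (peaks 7, 15, 16, 17, 27, 28 and 30), against 4.21% of all merged peaks, and 1 was lower (peak 50), against 2.86%. In the late tumors 18 were higher, against 9.7%, and 3 were lower, against 8.52%. The regions paired with upd2 and os were past the threshold for the late and not for the early tumors, with 1.68 ± 0.41 (adjusted p = 0.0129) and 0.87 ± 0.22 (adjusted p = 0.014) in the early and 2.64 ± 0.37 (adjusted p = 0.000298) and 1.30 ± 0.21 (adjusted p = 0.000636) in the late tumors. With DESeq2, and with its size factors in edgeR, both were also called for the early tumors. The region of upd3 was called at both stages, with 1.65 ± 0.28 (adjusted p = 0.00254) and 2.33 ± 0.27 (adjusted p = 0.000146). Each stage has 1 sample per technique, and without the early or the late ATAC-seq tumor no peak of the genome was called for that stage.

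Those calls do not show a difference between the stages, which was tested directly. No peak of the window, and none of all merged peaks (0%), passed the threshold between late and early tumors in the model of 9 samples. In a model of the 4 tumor samples alone, 139 of all merged peaks were higher and 173 lower in the late tumors, with peak 22 lower as the 1 call in the window. In the window 7 peaks had an unadjusted p under 0.05, or 14% against 4.11% of all merged peaks, and DESeq2 called 0 in the window and, over all merged peaks, 1 higher and 7 lower. The late tumor had the higher CPM at 40 of the 50 peaks by ATAC-seq, at 29 by FAIRE-seq and at 25 by both, where the shares of all merged peaks were 53.9%, 50.3% and 29.6% and those of the X chromosome 63.9%, 55.3% and 37.8%. These rest on 1 library per stage and technique. The median log2 fold change of late against early was 0.24, against 0.01 over all merged peaks. At peaks 6, 26, 27, 28 and 30 the late tumor was the higher one in each technique, as the values above show.

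The study also asked what ectopic Upd does to chromatin. Against the 3 ATAC-seq wild types, no peak of the window was called in the 2 Upd samples, where 0.00548% of all merged peaks were higher and 0.011% lower. In the window 6 peaks had an unadjusted p under 0.05, or 12% against 7.06% of all merged peaks, and DESeq2 called 3. Over all merged peaks DESeq2 called 14 higher and 31 lower. At the region of upd3 the Upd samples had 8.04 and 8.04 CPM, just above the highest wild type, and the difference was 0.42 ± 0.31 on the log2 scale (adjusted p = 0.808). The region of upd2 had 2.68 and 3.13 CPM, within or just above the wild types, and that of os had 108 and 139 CPM, within them. Their differences were 0.60 ± 0.46 (adjusted p = 0.821) and 0.05 ± 0.23 (adjusted p = 0.982). The median difference of the 50 peaks was -0.02, against -0.01 over all merged peaks and 0.12 over the X chromosome. In CPM both Upd samples lay above all 3 wild types at 9 of the 50 peaks and below at 2. The shares of all merged peaks were 12.1% and 12.9%, and those of the X chromosome 19.6% and 3.85%.

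**Figure D4:**
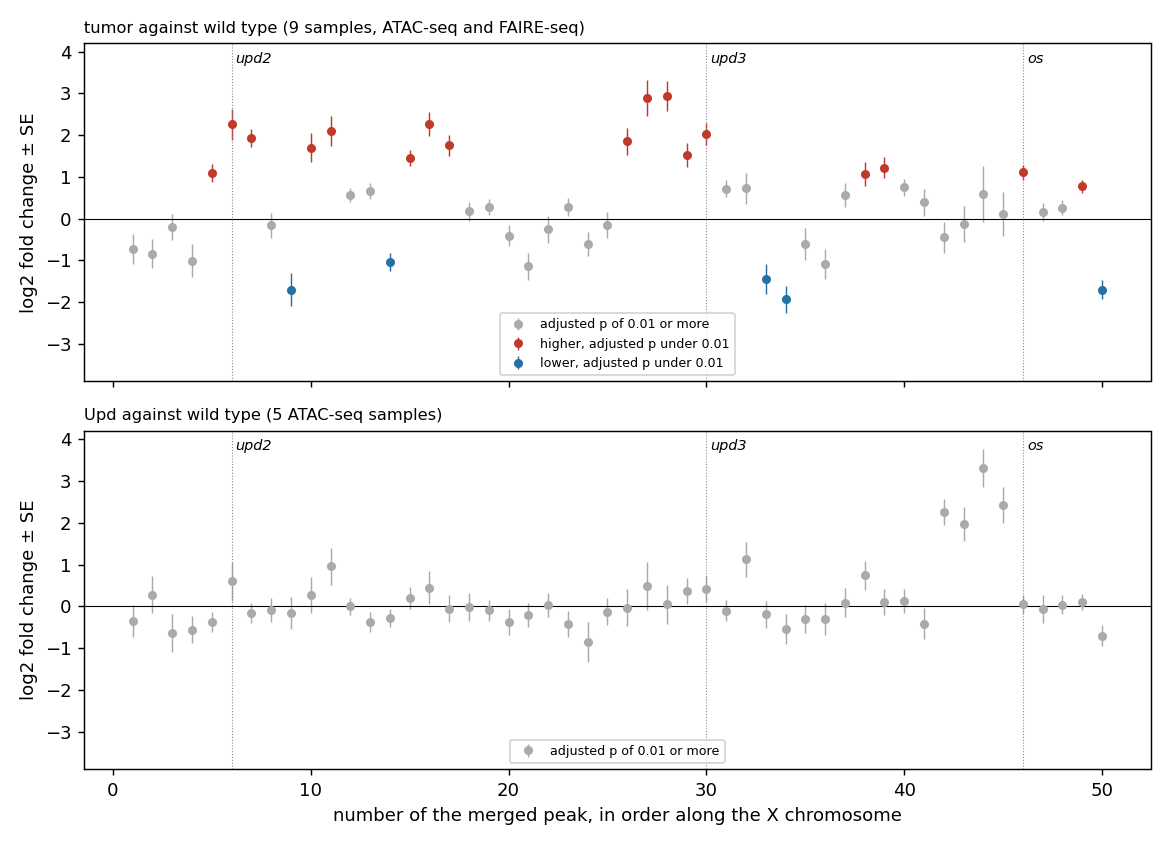
Log2 fold change with its SE at each of the 50 merged peaks, for tumor against wild type (top, 9 samples) and Upd against wild type (bottom, 5 samples), coloured where the adjusted p was under 0.01. In tumors the values at peaks 15 to 17 and 26 to 30 stand high, while in Upd discs only peaks 42 to 45 stand above 1.2 and no peak is called.

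A run of 4 adjacent peaks just before the region of os stood out in the Upd samples. These peaks, 42 to 45, were chosen after their values were seen. They lie from 18200211 to 18201588, between 2.13 and 3.20 kb from peak 46, and are 10, 339 and 23 bp apart. Peak 42 (chrX:18200211-18200484) had 18, 32 and 19 reads in the FRT82, DGRP-208 and Optix-GFP samples and 83 and 127 in the Upd samples, or 2.42, 4.24 and 3.11 CPM against 13.9 and 17.3 CPM. Peak 44 (chrX:18201104-18201208) had 4, 3 and 6 reads against 39 and 45, or 0.537, 0.397 and 0.982 CPM against 6.53 and 6.13 CPM. At each of the 4 peaks both Upd samples were above all 9 other samples. The authors called these peaks in Upd samples only, so they are in the merged list through the group where they are high. Their lack of overlap and their ranks below are thus a description and no independent evidence.

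Peak 43 (chrX:18200495-18200764) had 1.34, 3.31 and 4.42 CPM in the wild types and 9.88 and 13.5 CPM in the Upd samples. Peak 45 (chrX:18201232-18201588) had 1.21, 3.31 and 5.24 CPM against 16.2 and 18.1 CPM. Peaks 42, 43 and 45 were called by the authors in both Upd samples and in no other, and peak 44 in Upd replicate 2 alone. The fitted differences at peaks 42 to 45 were 2.27 ± 0.32, 1.98 ± 0.41, 3.32 ± 0.45 and 2.43 ± 0.43 on the log2 scale, with adjusted p of 0.0324, 0.246, 0.0312 and 0.114 in turn, so that none was called. By size of the difference they ranked 25, 48, 4 and 20 among the 36504 peaks tested. DESeq2 called peaks 42, 44 and 45 (adjusted p = 6.12e-05, 0.000853 and 0.000272), and so did scaling on X reads alone (0.00938, 0.00459 and 0.00938). Each of the 3 passed in only these 2 of the 11 alternative settings, and peak 43 passed in 0 of them. Reads of the UAS-UPD:GFP transgene and of the chromosomal os locus cannot be told apart in these files wherever the sequences are the same. In tumors the same 4 peaks were not called, at -0.45 ± 0.38, -0.12 ± 0.43, 0.58 ± 0.67 and 0.11 ± 0.52.

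**Figure D5:**
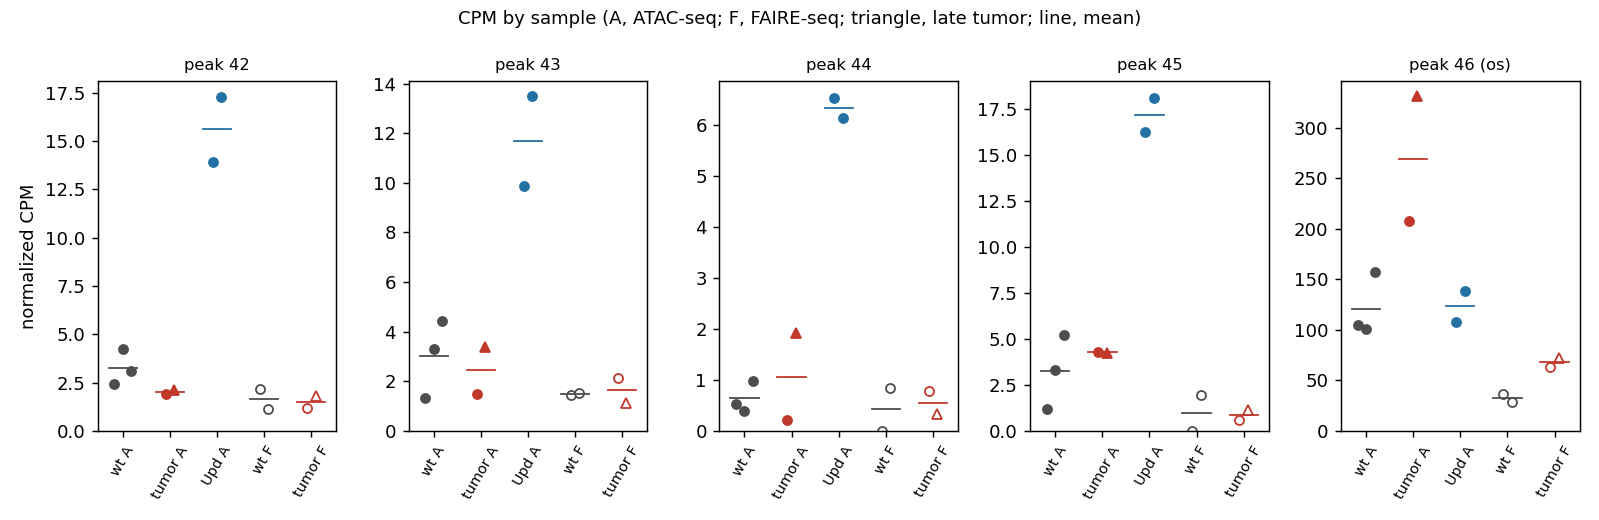
CPM of each sample (points) and group mean (lines) at peaks 42 to 45 and at the os-paired peak 46, drawn as in the plot of the ligand-paired regions. At peaks 42 to 45 both Upd samples lie above every other sample, and at peak 46 they lie within the range of the ATAC-seq wild types.

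Tumors and Upd discs were also compared directly, in 1 model of the 7 ATAC-seq samples. Of the 50 peaks, 16 were higher in tumors, against 12.1% of all merged peaks, and 10 were lower, against 12.7%. On the X chromosome 7.87% of the peaks were higher and 15.9% lower. The region of upd3 was higher in tumors by 1.72 ± 0.30 (adjusted p = 0.00041), that of upd2 by 1.94 ± 0.46 (adjusted p = 0.00354) and that of os by 1.10 ± 0.27 (adjusted p = 0.00456). Peak 28 gave the largest value, 3.33 ± 0.44 (adjusted p = 3.77e-05). None of the 3 ligand-paired regions was called without Upd replicate 1, without Upd replicate 2 or without the late tumor. Peaks 7, 16, 17 and 28 were called higher in all 13 settings tried for this comparison. Among the 10 lower peaks were 42 to 45, which had been picked for their level in the same Upd libraries, so their values are a description: -2.94 ± 0.39, -2.18 ± 0.49, -2.36 ± 0.59 and -2.03 ± 0.45 in turn. Peaks 9, 14, 21, 33, 34 and 50 were the other 6 that were lower in tumors. These counts rested on few libraries, being 4 higher and 5 lower without Upd replicate 1, 7 and 3 without Upd replicate 2, and 5 and 3 without the late tumor, with 1 lower without the early tumor.

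In the authors' peak lists, 12 of the 50 regions were called in tumors only (15.7% of all merged peaks), and 4 of these in all 4 tumors (peaks 15, 16, 30 and 39, against 1.49%). Another 12 were called in wild types but in no tumor (25.3%), and 5 in Upd samples only (3.68%). The number of the 50 called per sample was 25 to 30 in the ATAC-seq wild types, 24 in the early and 27 in the late ATAC-seq tumor, and 26 and 31 in the Upd samples. By FAIRE-seq it was 13 in FRT82, 14 in CantonS, 18 in the early and 25 in the late tumor.

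CTCF, an insulator protein, was mapped by ChIP-seq in CantonS discs in 1 sample with its input. There were 8 CTCF peaks in the window, which overlapped 5 of the 50 open regions (peaks 3, 4, 5, 48 and 49), or 3 when an overlap of 40% was asked for. The share of all merged peaks overlapped by CTCF was not computed, so this count has no background here. Of the 8 CTCF peaks, 5 lay before the region of upd2, from 18131170 to 18137573, and 2 lay after that of os, from 18213904 to 18215671. The remaining one, from 18164562 to 18164736, lay 100 bp from peak 21, between upd2 and upd3. Of the 5 open regions with CTCF, peaks 5 and 49 were higher in tumors over both techniques, and the other 3 were not called there. By ATAC-seq alone peak 4 was lower in tumors (-1.66 ± 0.39, adjusted p = 0.00362).

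Across the 11 samples, with each technique centred on its own mean, log2(CPM + 1) at the region of upd3 followed that of upd2 with a Pearson r of 0.938 and that of os with 0.946. These correlations share the same libraries and contrast and are a description only. Within the window the upd2 region was most like peak 27 (r = 0.980), and the upd3 region most like peaks 11 (0.975) and 28 (0.973). Outside the window, only merged peaks with a mean of at least 5 CPM over the 11 samples were searched. The upd2 region itself had a mean of 4.05 CPM. Among the peaks searched, the closest to the upd2 region lay at chrX:7188474-7188859 (r = 0.994), chr3R:27780208-27780348 (0.993) and chrX:19297342-19298221 (0.990). For the upd3 region they lay at chrX:589827-590294 (0.990), chr2R:2933097-2934033 (0.988), which the study paired with the tetraspanin gene Tsp42El, and chr2L:8084240-8085282 (0.987). For the os region they lay at chrX:17592297-17592992 (0.983), chr2L:6986532-6986807 (0.980) and chr3L:19050258-19050808 (0.980).

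Of 14 other genes of the pathway (the receptors dome and et, the kinase hop, Stat92E, inhibitors and targets), 4 had a region in the study's lists of opening or closing regions and could be placed, and the other 10 were not analysed here. These 4 regions were picked by the study on these samples, so their direction is no independent evidence. The region of apt, an inhibitor of Stat signalling in the ovary, had 1.48, 2.65 and 1.96 CPM in the ATAC-seq wild types and 22.6 and 21.9 CPM in the tumors, and rose by 2.88 ± 0.33 (adjusted p = 4.80e-05). That of chinmo, a transcription factor gene and Stat target, had 5.24, 4.77 and 9 CPM against 38.9 and 38.0 CPM, and rose by 2.11 ± 0.28 (adjusted p = 8.18e-05). The region of zfh2, a homeodomain and zinc finger gene, fell by 1.32 on the log2 scale (SE 0.26, adjusted p = 0.0013), and that of eyg, a Pax gene of eye growth, gave -0.91 ± 0.28 (adjusted p = 0.0183), so 2 of the 4 were higher and 1 was lower. In the Upd samples none of them was called, with -0.29 ± 0.47 for apt, 0.33 ± 0.34 for chinmo, -0.64 for zfh2 and -0.46 ± 0.38 for eyg.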

How the data were processed

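Per the study's methods, the authors mapped reads with Bowtie2 to dm3, called MACS2 peaks per sample, merged them and counted reads per merged peak with HTSeq. The deposited values are raw counts in 11 samples. The deposited peak lists are other values, positions without scores. ATAC-seq reads were centred on the cut site by the authors. CPM was computed from the counts with TMM (edgeR 4.0.16, R 4.3.3). Each comparison used edgeR's robust quasi-likelihood F-test over all merged peaks with a read, Benjamini-Hochberg adjustment and a threshold of 0.01. DESeq2 1.42.0, other scalings, other models and leaving out each library were alternatives. The script was tested on simulated data. Peak overlaps came from bedtools 2.31.1.

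Depth limits peaks of few reads. The samples of a group are different strains, stages or pools, so p-values measure the spread between these samples only. Named regions were the 3 ligand-paired ones, the one with the highest mean CPM, and of the others past the threshold in any of the 9 comparisons the 6 highest and 6 lowest combined log2 fold changes. Other regions were given by peak number in the lists of calls. The members and lists were chosen with earlier results of these data known. The tissue was not checked at eye enhancers, and no sequence is printed, as no dm3 genome was used. No columns of the authors' own comparisons were used. The study's lists gave pairs of region and gene only.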

Additional observations from a re-analysis of the deposited data

How the results depend on the processing

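No called result changed direction under the alternatives. Of the counts of peaks past the threshold, 194 alternative values stayed within 1.5 times and 40 did not. The named regions were followed in tumors against wild type over both techniques, in Upd against wild type and in tumors against Upd. There 10 alternative values passed the threshold newly and 63 no longer passed it. Another 710 stayed the same, which include the checks of the correlations and of the overlap with the samples' peaks. Without the technique term, the combined comparison gave 9 peaks higher and 1 lower, with 1531 and 1866 over all merged peaks. With DESeq2 size factors in edgeR, FAIRE-seq gave 1 higher (398 over all merged peaks), and with scaling on the X chromosome it gave 0 (57 over all merged peaks). The interaction gave 1 higher with DESeq2 and 1 with scaling on the X chromosome, with 315 and 178 higher over all merged peaks. The early tumors gave 13 higher and 4 lower with DESeq2, and 2 lower with total counts and with scaling on the X chromosome. Over all merged peaks DESeq2 called 2958 higher and 2305 lower there, against 1537 and 1044 in the main fit. Total counts gave 1211 lower and scaling on the X chromosome 870. The late tumors gave 5 lower with DESeq2, which called 3957 of all merged peaks lower, against 3109 in the main fit. Late against early gave 1 lower (peak 22) in a fit of the tumor samples and no wild types, with 139 higher and 173 lower over all merged peaks. Upd gave 3 higher with DESeq2 and 3 with scaling on the X chromosome, with 14 and 7 higher over all merged peaks. The 40% overlap left 3 regions with CTCF. The cause of these changes was not tested.

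Leaving out 1 library gave, as ranges of peaks higher and lower, 13 to 20 and 2 to 6 for both techniques, 7 to 20 and 1 to 8 for ATAC-seq, 0 to 13 and 0 to 1 for FAIRE-seq, 0 to 7 and 0 to 2 for early tumors, 0 to 18 and 0 to 4 for late tumors, 4 to 19 and 1 to 10 for tumors against Upd, and 0 to 0 for the interaction, late against early and Upd. Where an arm was left with 1 sample, it was assumed to vary like the other groups. Early tumors gave 0 lower without FRT82 or DGRP-208 by ATAC-seq or FRT82 by FAIRE-seq, and late tumors 0 lower without the late FAIRE-seq tumor. Scaling on the X chromosome moved the median log2 fold change of all merged peaks by 0.13 in ATAC-seq, -0.17 in FAIRE-seq, 0.29 in the interaction, -0.15 in Upd and 0.30 in tumors against Upd. Total counts moved it by -0.11 in FAIRE-seq, 0.11 in Upd and -0.18 in tumors against Upd. No paired analysis was possible because the labels give replicate numbers to the Upd samples only.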
